A study of Saccharomyces cerevisiae with 96 samples.

Results

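The proteasome genes described here were 32 genes of the budding yeast Saccharomyces cerevisiae, taken by name from the 6701 genes of the table. They comprised 14 genes of the core particle, 17 genes of the regulatory particle and RPN4 (YDL020C), which encodes the transcription factor that activates proteasome genes. All 32 had a value in each of the 48 columns of the table and all passed the filter on low values.

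The proteasome degrades proteins that were marked with a ubiquitin chain. Its core particle is a barrel of alpha and beta rings with the proteolytic sites inside. The regulatory particle caps the barrel, binds and unfolds the substrate with the ATPases of its base, and removes ubiquitin with an enzyme of its lid. Rpn4 binds a short promoter element named PACE (proteasome-associated control element) before proteasome genes. It is itself a short-lived substrate of the proteasome, so that in yeast a shortage of proteasome activity raises Rpn4 and with it the transcription of the subunits.

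The study compared 12 wild type strains with the populations obtained by serial dilution of each on xylulose for about 300 generations, and asked how adaptation changed expression on this pentose sugar. The groups were evolved populations on xylulose, evolved populations on glucose, wild type strains on xylulose and wild type strains on glucose, with 12 columns each. The strains, numbered 1 to 12 in the labels, were YPS1009, T73, T7, Y12, YJM269, PW5, CLIB215, CLIB324, CBS7960, EC1118, BY4743 and SK1. The media were YPD and YP-xylulose, which also held xylose left over from its preparation, and log phase cells were harvested.

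The model has limits that the labels and methods give. There was 1 evolved population per strain, each population may hold several genotypes, and the authors describe each column as an average of 2 repeats. The spread over 12 strains is therefore the only error measured, and the spread between repeats is unknown. In such bulk RNA, fewer cells of a type and less RNA per cell cannot be told apart. Values are reads per 1000000 (RPM) of poly(A)-selected fragments, so levels are compared between columns for 1 gene and never between genes.

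Some columns stood apart. In 59 genes typical of single strains, evolved populations 5 to 8 resembled wild type 9 to 12 and evolved 9 to 12 resembled wild type 5 to 8, with a mean r of 0.79 in that arrangement against -0.12 for the numbers as labelled. Evolved and wild type columns were therefore compared as unpaired groups, which does not rest on the numbers. The glucose column of wild type 7 had values for 3935 genes, the fewest of all columns, against 4157 in the next. Chromosome XV genes were raised as a whole, by over 0.15 on the log2 scale on both sugars, in the columns of evolved populations 1, 3, 8 and 11, and chromosome VII genes in those of 4, 11 and 12. Of the 31 subunit genes, 6 lie on chromosome XV and 4 on chromosome VII. Read depth could be recovered for 17 columns, which held from 253336 to 1114087 reads, and is unknown for the other 31.

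The element that Rpn4 binds was looked up first, because it is what the subunit genes share in sequence. The motif searched was GGTGGCAAA on either strand, in the 500 bases before the start codon of the S288c reference (RefSeq, R64). It was present in 99 of 6000 such windows, or 1.65%, and in 27 of the 31 subunit genes. Each of the 27 held a single copy, 84 to 183 bases before the start codon with a median of 120, and 19 copies ran in the direction of the gene. The shorter form without the first G, GTGGCAAA, which overlaps the full motif, was in 3.78% of all windows and in 30 of the 31. It added PRE5, PUP1 and RPN8 and left RPN10 without a match. RPN4 itself held neither form. These are letters of the reference strain and were not read from the 12 strains.

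The following stretches belong to 6 subunit genes whose values are described below, with the motif in capitals and coordinates in R64. They show the motif with its neighbouring bases, read in the direction of the motif.
PRE1 (chrV:177683-177711, plus strand): aaatctttacGGTGGCAAAaaataaagaa
PRE7 (chrII:141150-141178, plus strand): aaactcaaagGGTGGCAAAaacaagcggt
PRE8 (chrXIII:86841-86869, minus strand): agcttattaaGGTGGCAAAattgtccccg
RPT1 (chrXI:174048-174076, minus strand): ttagttttcgGGTGGCAAAattcggtaat
RPT3 (chrIV:1261495-1261523, plus strand): ctgaaagtaaGGTGGCAAAatagtaaatc
RPN3 (chrV:196843-196871, minus strand): ctctttcttgGGTGGCAAAtgtttttcgt

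The window before RPN4 held motifs of 3 other factors that are known to act on it in yeast, Yap1 of the oxidative stress response, Pdr1 and Pdr3 of multidrug resistance and the heat shock factor Hsf1. The Yap1 motif TTACTAA, on either strand, was in 11.8% of all windows and was found once before RPN4 and before 5 subunit genes. The element of Pdr1 and Pdr3, TCCGNGGA, was in 2.92% of windows and was found at 2 places before RPN4 and before no subunit gene. A heat shock element was in 1.48% of windows, and it too was found at 2 places before RPN4 and before no subunit gene. These stretches are shown, with the motif in capitals, because the expression of YAP1, PDR1 and HSF1 was measured too.
RPN4, Yap1 motif (chrIV:417065-417093, minus strand): cgtgatcgctaTTACTAAtagccgtttac
RPN4, Pdr1 and Pdr3 element (chrIV:417133-417160, minus strand): aataacaagtTCCGTGGAactcaaagaa
RPN4, Pdr1 and Pdr3 element (chrIV:417090-417117, plus strand): cacgtgattaTCCGTGGAaaggttcgta
RPN4, heat shock element (chrIV:417036-417064, minus strand): agtgatggTTCTAGAAAGTTCcgtttcgg
RPN4, heat shock element (chrIV:416709-416737, minus strand): caaaagttTTCTAGAATTTTCaagcaatc

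**Figure D1:**
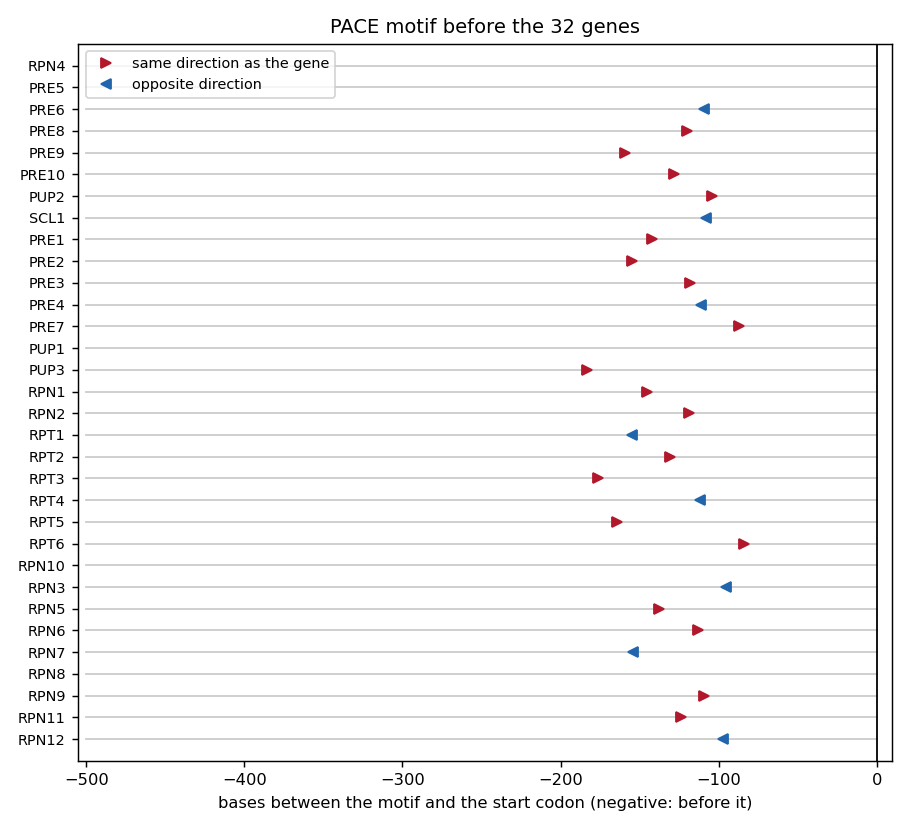
Position of the PACE motif in the 500 bases before the start codon (vertical line at 0) of the 32 genes, with the distance in bases on the horizontal axis. Triangles point in the direction of the motif relative to the gene, and the 27 copies lie between 84 and 183 bases before the start codon.

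RPN4 rose on xylulose in the evolved populations and in the wild type strains, in every strain by more than the median of the subunit genes. In evolved populations on xylulose it had from 77.5 to 434 RPM with a median of 148 RPM, and on glucose from 49.5 to 103 RPM with a median of 86.7 RPM. The highest column was evolved 11 on xylulose, and the groups of columns overlapped, although within each population the xylulose value was the higher one in 12 of 12. The mean log2 ratio xylulose/glucose was 0.97 (SE 0.14, n = 12, limma adjusted p = 1.34e-05), a 1.96-fold difference, and it was 0.87 without evolved 11.

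In wild type strains RPN4 had from 114 to 333 RPM on xylulose with a median of 200 RPM, and from 11.8 to 149 RPM on glucose with a median of 83.4 RPM. It was higher on xylulose in 12 of 12 strains, and the groups again overlapped. The mean log2 ratio was 1.46 (SE 0.28, limma adjusted p = 0.000322), a 2.75-fold difference. The lowest glucose value belonged to wild type 7, whose single ratio was 4.67 on the log2 scale. That glucose value lay near 10 RPM, under which values are blank. Its column held 253336 reads, the fewest of the 17 columns of known depth. Without wild type 7 the mean ratio was 1.17 (limma adjusted p = 0.000109). The single ratios ran from 0.34 to 2.08 in the evolved populations and from 0.55 to 4.67 in the wild type strains.

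In the xylulose/glucose ratio, the subunit genes as a group did not rise as RPN4 did. The median of the 31 subunit genes was 228 ± 27.5 RPM in evolved populations on xylulose and 254 ± 37.5 RPM on glucose (SD, n = 12 each). It was 229 ± 18.5 RPM in wild type strains on xylulose and 232 ± 24.1 RPM on glucose. RPN4 exceeded the median of the subunits in the xylulose/glucose ratio in 12 of 12 evolved populations and in 12 of 12 wild type strains. In this ratio the subunit median lay below that of all genes in 11 of 12 evolved populations and 11 of 12 wild type strains. The medians of all genes were taken with blanks set to 10 RPM, and the subunit genes have no blanks.

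**Figure D2:**
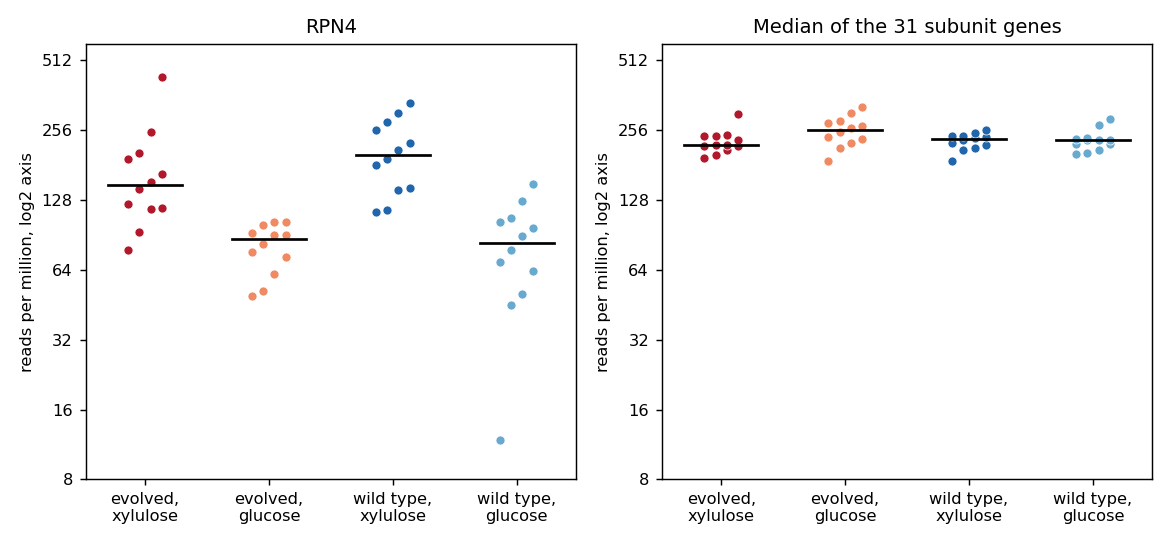
RPN4 (left) and the median of the 31 subunit genes (right) in RPM on a log2 axis, with 1 point per column and a bar at the median of the 12 columns. RPN4 medians were 148 and 86.7 RPM in evolved populations on xylulose and glucose and 200 and 83.4 RPM in wild type strains, while the subunit median stayed between 188 and 320 RPM in all 48 columns.

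Among the evolved populations, 2 of the 32 genes rose on xylulose and 3 fell, or 1 and 3 of the 31 subunits. Over all 5129 genes tested, 24.0% were called higher and 15.5% were called lower in this comparison. With the fixed total as deposited, both subunit shares lay below these values. The median log2 ratio xylulose/glucose of the subunits was -0.15, with 24 of 31 below 0, against 0.08 over all genes (0.03 with blanks left missing). The counts depended on the scaling. With median-of-ratios scaling in place of a fixed total, 1 of the 32 was called higher and 12 were called lower, against 19.9% higher and 19.8% lower over all genes, so that the share called lower was then above the background. The medians were -0.24 for the subunits and -0.01 for all genes.

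RPN3 (YER021W), a structural subunit of the lid, was the subunit called higher. It had from 222 to 402 RPM with a median of 283 RPM in evolved populations on xylulose, and from 148 to 297 RPM with a median of 231 RPM on glucose. The groups overlapped, and the value on xylulose was higher in 10 of 12 populations (log2 ratio 0.35, SE 0.11, limma adjusted p = 0.0191). With median-of-ratios scaling the ratio was 0.26 and the adjusted p = 0.0651.

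With the fixed total, the 3 genes that fell on xylulose in the evolved populations belonged to the regulatory particle. With median-of-ratios scaling, 5 core and 7 regulatory particle genes were called lower. RPT1 (YKL145W), an ATPase of the base, had from 113 to 200.3 RPM with a median of 167 RPM on xylulose, against 157 to 296 RPM with a median of 211 RPM on glucose. It was lower in 11 of 12 populations, with overlapping groups (log2 ratio -0.39, SE 0.12, limma adjusted p = 0.0132). RPN8 (YOR261C), which forms the deubiquitinating module of the lid with Rpn11, had medians of 199 and 259 RPM on xylulose and glucose (log2 ratio -0.36, adjusted p = 0.0355). RPN10 (YHR200W), a ubiquitin receptor, had medians of 206 and 264 RPM (log2 ratio -0.31, adjusted p = 0.0485). The calls of RPN8 and RPN10 were close to the threshold, and when each of the 12 populations was left out in turn they were lost in 7 and in 9 of the fits.

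No core particle gene passed the test in the evolved populations with the fixed total. PRE1 (YER012W), a beta subunit, had from 181 to 283 RPM with a median of 224 RPM on xylulose and from 201 to 330.0 RPM with a median of 284 RPM on glucose. Its log2 ratio was -0.29 (SE 0.11, limma adjusted p = 0.0501), lower in 9 of 12 populations, and it was called under 9 of 19 alternative settings. PRE8 (YML092C), an alpha subunit, had from 102 to 194 RPM with a median of 139 RPM on xylulose and from 62.6 to 161 RPM with a median of 115 RPM on glucose, and a log2 ratio of 0.36 (adjusted p = 0.0587). Of the remaining core genes, the alpha subunits PRE5 (YMR314W), PRE6 (YOL038W), PRE9 (YGR135W), PRE10 (YOR362C), PUP2 (YGR253C) and SCL1 (YGL011C) had log2 ratios from -0.23 to -0.10. The beta subunits PRE2 (YPR103W), PRE3 (YJL001W) and PUP1 (YOR157C), which carry the proteolytic sites, had -0.19, -0.15 and -0.04. The other beta subunits PRE4 (YFR050C), PRE7 (YBL041W) and PUP3 (YER094C) had 0.08, -0.24 and -0.06.

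The remaining regulatory particle genes did not pass the test in the evolved populations with the fixed total either. The ATPase genes RPT2 (YDL007W), RPT3 (YDR394W), RPT4 (YOR259C), RPT5 (YOR117W) and RPT6 (YGL048C) had log2 ratios from -0.21 to 0.13. RPN1 (YHR027C) and RPN2 (YIL075C), the scaffolds of the base, had 0.14 and -0.01. The lid genes RPN5 (YDL147W), RPN6 (YDL097C), RPN7 (YPR108W), RPN9 (YDR427W), RPN11 (YFR004W) and RPN12 (YFR052W) ran from -0.25 to 0.04, and RPN11, the deubiquitinating enzyme, had -0.16.

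In the wild type strains, 5 of the 32 genes rose on xylulose and 1 fell, or 4 and 1 of the 31 subunits. Over all genes tested, 30.5% were called higher and 9.38% were called lower, so the subunit share was below the background in each direction with the fixed total. The median log2 ratio of the subunits was 0.10, with 22 of 31 above 0, against 0.31 over all genes (0.18 with blanks left missing). Median-of-ratios scaling moved the median of all genes to 0.13 and that of the subunits to -0.08, and the calls among the 32 became 2 higher and 4 lower, against 21.6% higher and 13.5% lower over all genes. The share called lower was then near the background. RPN4 and RPN3 were higher under both scalings. Median-of-ratios scaling shifts the mean log2 ratio of every gene in a comparison by the same amount. The distance of the subunit median from the median of all genes therefore could not change between scalings.

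RPN3 was called higher in the wild type strains as well. It had from 250 to 432 RPM with a median of 292 RPM on xylulose, and from 117 to 288.2 RPM with a median of 191 RPM on glucose. The groups overlapped, yet the xylulose value was higher in 12 of 12 strains (log2 ratio 0.72, SE 0.14, limma adjusted p = 0.000395, and adjusted p = 0.00567 with median-of-ratios scaling).

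PRE8, RPT3 and RPN7 were the other subunit genes called higher in the wild type strains, and each of these calls was lost with median-of-ratios scaling. PRE8 had from 80.5 to 182 RPM with a median of 127 RPM on xylulose and from 43.4 to 165 RPM with a median of 80.7 RPM on glucose, higher in 8 of 12 strains (log2 ratio 0.67, SE 0.21, limma adjusted p = 0.0164). RPT3, an ATPase gene, had medians of 206 and 146 RPM on xylulose and glucose and was higher in 11 of 12 (log2 ratio 0.46, adjusted p = 0.0311). RPN7, of the lid, had medians of 221 and 173 RPM and was higher in 9 of 12 (log2 ratio 0.46, adjusted p = 0.0311). Without strain 7, RPT3 had an adjusted p of 0.0713 and RPN7 of 0.0544, and 3 of the 32 genes were called in place of 6. Over the 12 fits that each left out 1 strain, RPT3 lost its call in 4 and RPN7 in 6.

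PRE5, an alpha subunit gene, was the subunit called lower on xylulose in the wild type strains. It had from 162 to 273 RPM with a median of 208 RPM on xylulose and from 160.0 to 516 RPM with a median of 258 RPM on glucose. The highest glucose value was in wild type 5, and the xylulose value was lower in 11 of 12 strains (log2 ratio -0.37, SE 0.14, limma adjusted p = 0.0459). This call was lost under 11 of 19 alternative settings. PUP1 and RPT1 had ratios of similar size, -0.34 and -0.36, which did not pass the test (adjusted p = 0.0693 and 0.064) and did pass with median-of-ratios scaling (adjusted p = 0.00905 and 0.0085).

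Core and regulatory particle genes had different medians in the wild type strains. The 14 core genes had a median log2 ratio xylulose/glucose of 0.00, with 7 above 0, and the 17 regulatory genes one of 0.27, with 15 above 0. All 8 lid genes were above 0, from 0.04 to 0.72, with a median of 0.23. The median over all genes was 0.31 with blanks set to 10 RPM, above those of the core, regulatory and lid genes. With blanks left missing it was 0.18, below the regulatory and lid medians, whose genes have no blanks. With median-of-ratios scaling the core, regulatory and lid medians were -0.18, 0.09 and 0.05, against 0.13 over all genes. In the evolved populations the medians of the core and regulatory genes were -0.15 and -0.16. These are descriptions over genes that share columns, and the difference between the particles was not tested.

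**Figure D3:**
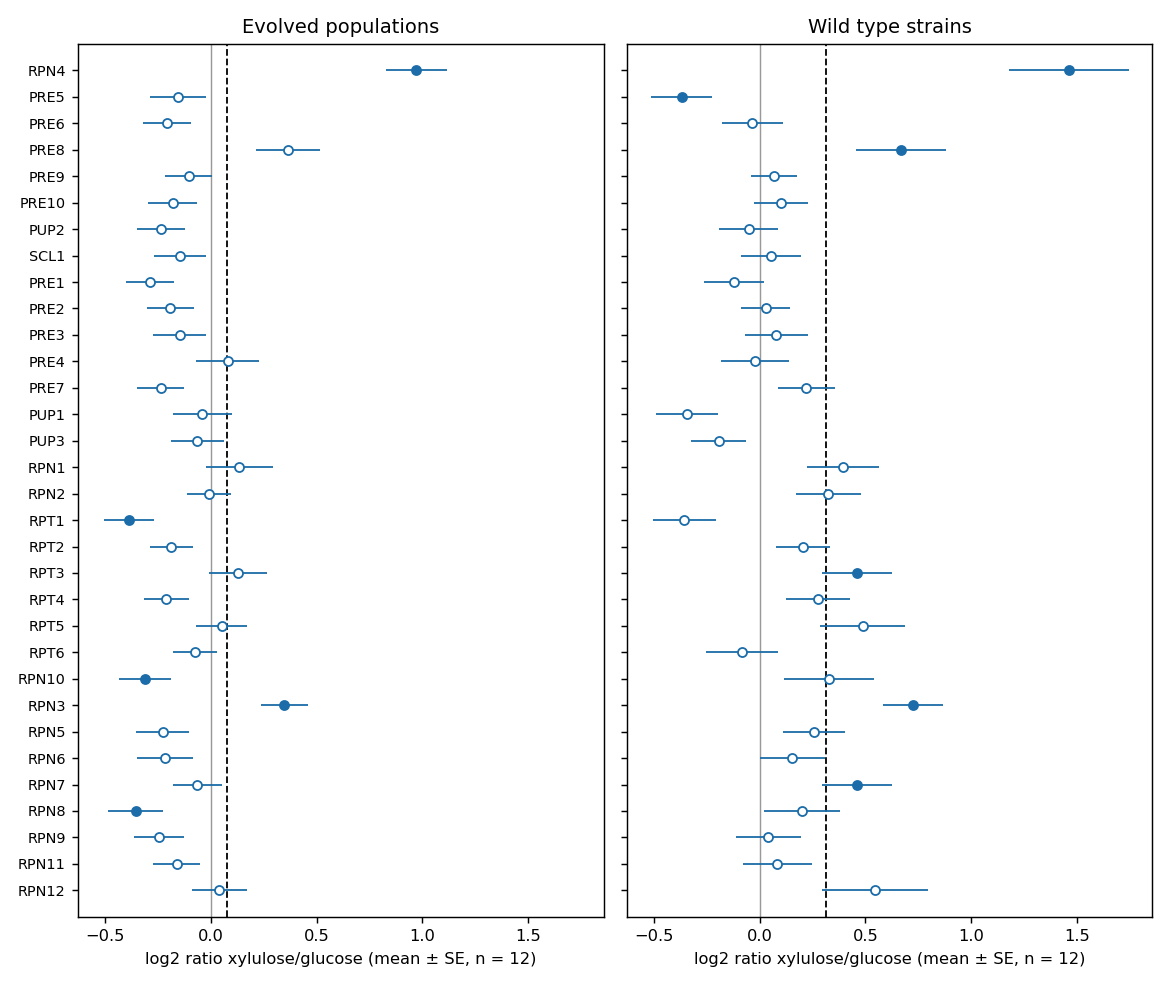
Mean log2 ratio xylulose/glucose with SE over 12 strains for each of the 32 genes, in evolved populations (left) and wild type strains (right). Filled points passed the test, and the dashed line is the median of all genes tested, 0.08 in evolved populations and 0.31 in wild type strains. RPN4 lies far to the right in both panels and most subunits lie left of the dashed line.

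The test of whether the xylulose/glucose ratio differed between evolved populations and wild type strains called none of the 32 genes. Over all genes tested, 0.741% were called higher and 5.91% were called lower in the evolved populations. At an unadjusted threshold of 0.05, 8 of the 32 genes passed, near the 22.5% of all genes that did. The subunits had a median difference in the log2 ratio of -0.28, with 26 of 31 below 0. Over all genes the median was -0.20, and -0.11 with blanks left missing. RPN4 had a difference of -0.49 (SE 0.33, limma adjusted p = 0.397), and of -0.19 without evolved 7 and wild type 7.

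The smallest adjusted p-values in this comparison belonged to RPT4, PRE7 and RPN7. RPT4 had mean log2 ratios of -0.21 in evolved populations and 0.28 in wild type strains (difference -0.48, SE 0.17, limma adjusted p = 0.0856). PRE7 had -0.24 in evolved populations and 0.22 in wild type strains (difference -0.46, adjusted p = 0.099), and RPN7 had -0.06 in evolved populations and 0.46 in wild type strains (difference -0.52, adjusted p = 0.099). In each of the 3 genes the ratio of 11 of 12 evolved populations lay below the wild type mean, and the groups overlapped. PRE10 had -0.18 in evolved populations and 0.10 in wild type strains (difference -0.28, adjusted p = 0.312).

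When evolved populations were compared with wild type strains on 1 sugar at a time, none of the 32 genes passed the test. On xylulose, 0.0195% of all genes were called higher and 1.54% were called lower. On glucose these shares were 2.07% and 0.0975%. At an unadjusted threshold of 0.05, 5 of the 32 passed on xylulose and 5 on glucose, near the 14.4% and 16.9% of all genes that did. The median log2 ratio evolved/wild type of the subunits was -0.03 on xylulose and 0.26 on glucose, against -0.02 and 0.17 over all genes. With blanks left missing, the medians over all genes were -0.03 on xylulose and 0.07 on glucose. These comparisons and those of the sugars share their columns, so the values are not independent of each other.

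RPN4 had means of 172 ± 95.9 RPM in evolved populations and 207 ± 72.98 RPM in wild type strains on xylulose (SD, n = 12 each). The log2 ratio evolved/wild type was -0.34 (SE 0.23, limma adjusted p = 0.534). On glucose its means were 81.1 ± 18.9 RPM in evolved populations and 82.4 ± 37.7 RPM in wild type strains (log2 ratio 0.15, SE 0.28, adjusted p = 0.83). The sign of the glucose ratio turned without evolved 7 and wild type 7, when it was -0.08 (adjusted p = 0.908).

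On xylulose the smallest adjusted p-values were those of RPN2, PUP3 and RPN7. RPN2 had from 321 to 444 RPM with a median of 365 RPM in evolved populations and from 348 to 627 RPM with a median of 415 RPM in wild type strains (log2 ratio -0.27, SE 0.10, limma adjusted p = 0.195). PUP3 had medians of 262 RPM in evolved populations and 232 RPM in wild type strains (log2 ratio 0.20, adjusted p = 0.318). RPN7 had medians of 198 RPM in evolved populations and 221 RPM in wild type strains (log2 ratio -0.17, adjusted p = 0.329). PRE10 had a log2 ratio of 0.14 (adjusted p = 0.602).

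On glucose RPT5 had the largest ratio. It had from 108 to 287.6 RPM with a median of 190.2 RPM in evolved populations, against 63.2 to 301 RPM with a median of 104 RPM in wild type strains. The highest wild type value was in strain 4 and the groups overlapped, with 11 of 12 evolved columns above the wild type mean (log2 ratio 0.76, SE 0.22, limma adjusted p = 0.0563). Without strain 4 the ratio was 0.85 and passed the test (adjusted p = 0.0195). RPT4 had medians of 246 RPM in evolved populations and 178 RPM in wild type strains (log2 ratio 0.52, SE 0.17, adjusted p = 0.101), with 12 of 12 evolved columns above the wild type mean. PRE7 had medians of 392 RPM in evolved populations and 305 RPM in wild type strains (log2 ratio 0.40, adjusted p = 0.167), and PRE10 had a log2 ratio of 0.42 (adjusted p = 0.17).

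Several of these genes lie on chromosome XV. The 6 subunit genes there are PRE6, PRE10, PUP1, RPT4, RPT5 and RPN8, and their median log2 ratio evolved/wild type was 0.12 on xylulose and 0.47 on glucose, against -0.07 and 0.22 for the other 25 subunits. In evolved populations 1, 3, 8 and 11, where the whole chromosome was raised, the median of the 6 genes relative to the wild type mean ran from 0.08 to 0.65 on xylulose and from 0.41 to 0.89 on glucose. In the other 8 evolved populations it ran from -0.22 to 0.10 on xylulose and from 0.03 to 0.54 on glucose. Without the 4 populations, the log2 ratios of RPT5 and RPT4 on glucose were 0.67 and 0.36, and that of PRE10 on xylulose was -0.01. The part of the raised chromosome in these ratios was not tested further.

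The subunit genes on chromosome VII are PRE9, PUP2, SCL1 and RPT6. In evolved populations 4, 11 and 12, with raised chromosome VII genes, their median relative to the wild type mean was 0.48, 0.55 and 0.15 on xylulose and 0.43, 0.21 and -0.28 on glucose. In the other 9 evolved populations it ran from -0.36 to 0.24 on xylulose and from -0.20 to 0.53 on glucose.

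**Figure D4:**
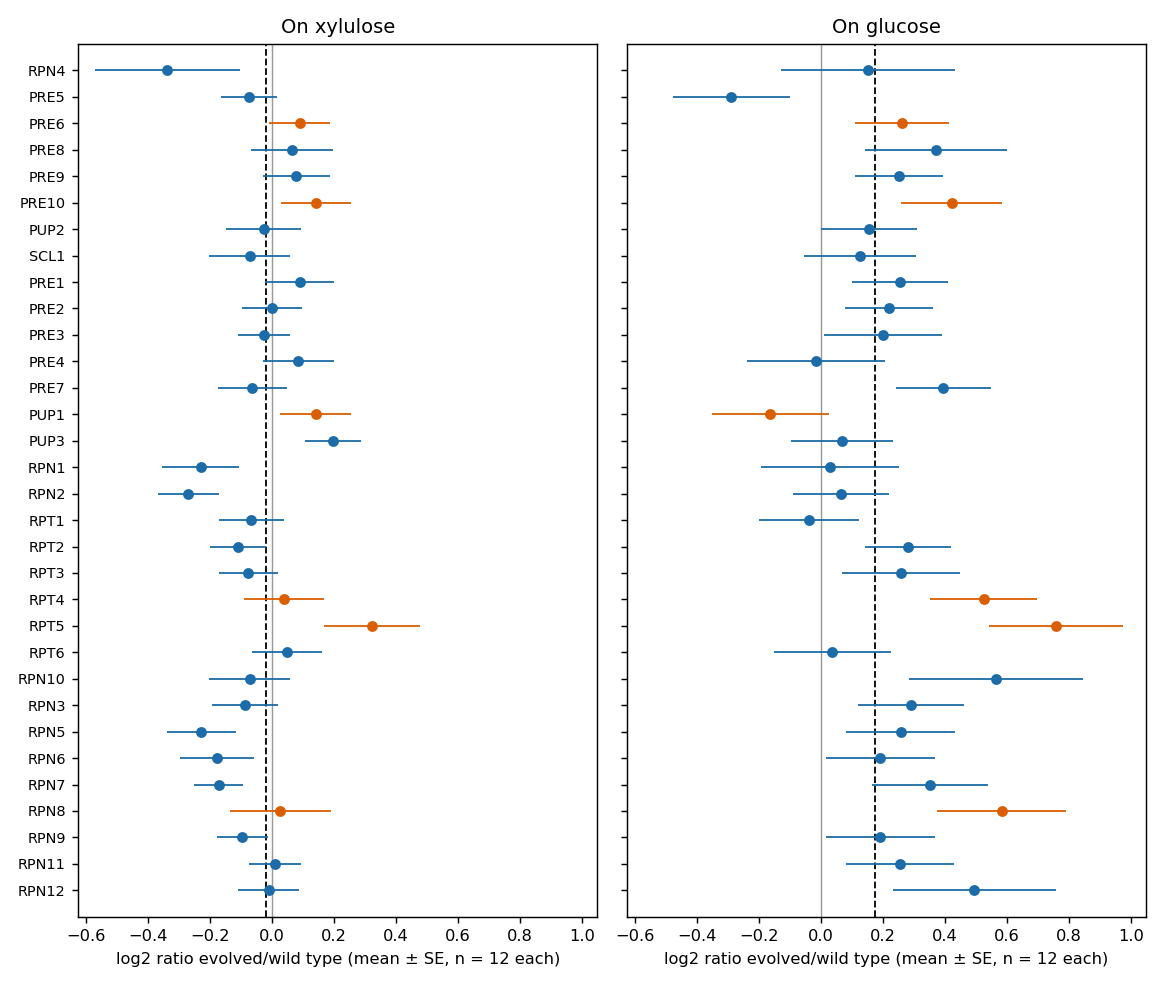
Mean log2 ratio evolved/wild type with SE (12 columns each) for the 32 genes on xylulose (left) and glucose (right). Orange points are the 6 subunit genes on chromosome XV, and the dashed line is the median of all genes tested, -0.02 on xylulose and 0.17 on glucose. No gene passed the test, and RPT5, at 0.32 and 0.76, is the subunit farthest to the right in both panels.

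Across strains, RPN4 varied more than each of the 31 subunits on xylulose, in evolved populations and in wild type strains. On glucose 11 subunits had a larger SD than RPN4 in evolved populations, and 1, RPN10, in wild type strains. The SD of its log2 value over 12 columns was 0.67 in evolved populations on xylulose, 0.37 in evolved populations on glucose, 0.53 in wild type strains on xylulose and 0.96 in wild type strains on glucose. The median SD of the subunits in the same order was 0.24, 0.33, 0.24 and 0.40, below the median of all 2528 genes with a value in every column, 0.35, 0.51, 0.41 and 0.62. On xylulose the SD of RPN4 exceeded that of 92.4% of these genes in evolved populations and 71.6% in wild type strains. On glucose it exceeded that of 20.1% in evolved populations and 90.5% in wild type strains, where the lowest value was that of strain 7. Among the subunits, the smallest SD was 0.13, of RPN11 in evolved populations on xylulose, and the largest was 1.00, of RPN10 in wild type strains on glucose.

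In evolved populations on xylulose, the columns with more RPN4 also had a higher subunit median. Pearson's r between the log2 values was 0.93 and Spearman's rho was 0.86 (n = 12), and r was 0.77 without evolved 11 and 10, the columns with the most and the least RPN4. In evolved populations on glucose r was 0.14. In wild type strains it was 0.44 on xylulose and -0.42 on glucose, and it became 0.09 without wild type 6 and 8 on xylulose and 0.48 without wild type 7 and 8 on glucose. These values are descriptions over columns that are each scaled to the same total, and the difference between the groups was not tested. The subunit median also includes the genes on chromosomes XV and VII, both of which were raised in evolved 11. The 21 subunits on neither chromosome had a median of 0.07 relative to the wild type mean in evolved 11 on xylulose. Only evolved 6, at 0.15, was higher. The part of the raised chromosomes in the r of 0.93 was not tested. In evolved populations on xylulose 28 of 31 subunits had an r above 0 with RPN4, with a median of 0.44. In wild type strains on xylulose 23 had, with a median of 0.22. On glucose 19 had in evolved populations and 16 in wild type strains, with medians of 0.05 and 0.03. The same count was not made over all genes.

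**Figure D5:**
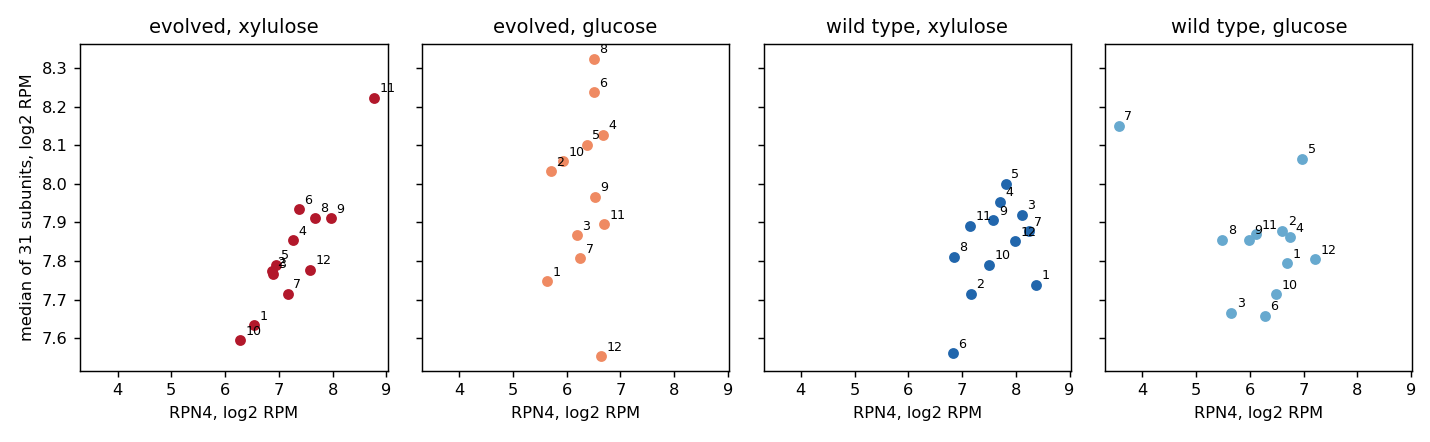
Log2 RPM of RPN4 (horizontal) against the median log2 RPM of the 31 subunit genes (vertical), with 1 point per column labelled with its strain number. In evolved populations on xylulose the points rise from number 10 (77.5 RPM of RPN4) to number 11 (434 RPM), and wild type 7 on glucose (11.8 RPM) stands far to the left.

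The subunit genes varied together only in part. With values centred within each of the 4 groups, the median r of a subunit with the median of the other subunits over 48 columns was 0.37, and ran from -0.01 for RPN5 to 0.66 for PRE2. RPN4 had 0.31. The median r of 2496 other genes was 0.10, and 8.81% of them exceeded 0.37. The genes most like the subunit median were YHR112C (r = 0.68), CEG1 (0.66), which encodes the mRNA capping guanylyltransferase, ADP1 (0.66), ARF2 (0.62), MRF1 (0.62), YFR010W-A (0.61), the peroxiredoxin gene PRX1 (0.58), the linker histone gene HHO1 (0.58), the peroxiredoxin gene AHP1 (0.58) and NSE3 (0.57). This is a likeness of values over columns and says nothing of function.

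The 4 subunit genes without the full motif were PRE5, PUP1, RPN8 and RPN10, and the other 27 held it. The median log2 ratios xylulose/glucose were -0.23 and -0.15 in evolved populations, without and with the motif, and -0.07 and 0.10 in wild type strains. For evolved/wild type they were -0.02 and -0.03 on xylulose and 0.20 and 0.26 on glucose. With 4 genes in 1 group no test of this difference was made.

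Of 40 related genes, which encode other subunits, assembly factors, proteasome-associated proteins, ubiquitin and its enzymes, Cdc48 with shuttle factors, and regulators of RPN4, 39 were tested. PDR3 did not pass the filter on low values. On xylulose 4 rose and 5 fell in the evolved populations, and 13 rose and 2 fell in the wild type strains. Over all genes 24.0% rose and 15.5% fell in evolved populations and 30.5% rose and 9.38% fell in wild type strains, and the related genes called higher in wild type strains were near that share. The difference between the populations called 4 of them, all with a lower ratio in evolved populations. Over all genes 5.91% were called lower in that comparison. Evolved populations exceeded wild type strains in 3 on glucose, against 2.07% of all genes, and no related gene passed on xylulose.

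Of the 3 regulators of RPN4 that were tested, YAP1 rose on xylulose in both populations and PDR1 in the wild type strains. YAP1, the oxidative stress regulator, had from 134 to 228 RPM with a median of 165 RPM in evolved populations on xylulose and from 69.9 to 171 RPM with a median of 123 RPM on glucose, higher in 12 of 12 (log2 ratio 0.62, SE 0.13, limma adjusted p = 0.000661). In wild type strains it had from 171 to 311 RPM with a median of 210 RPM on xylulose and from 40.8 to 159 RPM with a median of 77.8 RPM on glucose. The groups did not overlap there, and the log2 ratio was 1.52 (SE 0.19, adjusted p = 2.09e-06). PDR1 rose in the wild type strains (log2 ratio 0.84, adjusted p = 0.00937), and its ratio in evolved populations was 0.53 (adjusted p = 0.0575). HSF1 had ratios of 0.08 and 0.62 in evolved populations and wild type strains, which did not pass the test (adjusted p = 0.74 and 0.051).

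Ubiquitin genes and conjugating enzymes moved in both directions. UBC4, which encodes a conjugating enzyme for short-lived and abnormal proteins, fell on xylulose in evolved populations (log2 ratio -0.70, limma adjusted p = 2.27e-05) and in wild type strains (-0.61, adjusted p = 0.00175). Its close paralog UBC5 rose in wild type strains (1.77, adjusted p = 8.47e-05), and reads of such paralogs could be split between them in counting. UBA1, the ubiquitin-activating enzyme, rose by 0.58 in evolved populations and 0.63 in wild type strains on the log2 scale (adjusted p = 0.00162 and 0.00334). RPS31, a fusion of ubiquitin and a ribosomal protein, fell by 0.71 on the log2 scale in wild type strains (adjusted p = 1.06e-07), lower in 12 of 12. DDI1, a shuttle factor, rose in evolved populations (0.70, adjusted p = 0.00397) and UFD4, a ubiquitin ligase, in wild type strains (0.88, adjusted p = 0.00219).

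UBI4, the polyubiquitin gene of stressed and starved yeast, went opposite ways in the populations. It had from 266 to 1025 RPM with a median of 492 RPM in evolved populations on xylulose, against 395 to 1267 RPM with a median of 754 RPM on glucose. In wild type strains it had from 322 to 3301 RPM with a median of 625 RPM on xylulose, against 197 to 1325 RPM with a median of 323 RPM on glucose. The log2 ratio was -0.62 in evolved populations (SE 0.19, limma adjusted p = 0.013) and 0.97 in wild type strains (SE 0.27, adjusted p = 0.00721). The highest value was in wild type 1 on xylulose, and the groups overlapped in both populations.

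SEM1 (YDR363W-A), a small subunit of the regulatory particle that is not among the 32 genes, went the same way as UBI4. It had medians of 314 and 464 RPM on xylulose and glucose in evolved populations (log2 ratio -0.49, SE 0.13, limma adjusted p = 0.00401) and of 328 and 282 RPM in wild type strains (log2 ratio 0.37, SE 0.14, adjusted p = 0.0351). The wild type call was lost with median-of-ratios scaling (0.19, adjusted p = 0.33). Of the 9 assembly factor genes, 3 rose in the wild type strains, near the 30.5% of all genes called higher there. HSM3, POC4 and NAS6 had log2 ratios of 0.82, 0.73 and 0.48, and none of these passed with median-of-ratios scaling. In wild type strains on glucose, HSM3 had a value in 10 of 12 columns and POC4 in 11 of 12. With blanks left missing none of the 3 passed either, and the ratio of HSM3 was 0.54 (limma adjusted p = 0.1).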

How the data were processed

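RNA sequencing of 96 samples was deposited as 1 table of log2 RPM values of 6701 genes in 48 columns. The authors aligned 50 base reads to build R64 with Bowtie, discarded those from rRNA, counted UMIs once, scaled every library to 1000000 and averaged 2 repeats. Values under 10 RPM are blank in the deposited table (84458 cells).

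Blanks were set to 10 RPM. The 5129 genes that averaged 10 RPM or more, with blanks counted as 0 for this filter, entered limma 3.58.1 (R 4.3.3, lmFit, eBayes with a mean-variance trend), on differences within strain number for xylulose/glucose and between unpaired groups for evolved/wild type. In 10 of 12 evolved and 7 of 12 wild type numbers, same-numbered columns of the sugars deviated together (r over 0.1), and the number marks 1 strain. Genes were called at a Benjamini-Hochberg adjusted p under 0.05 over all 5129. The fit was tested on simulated data. Alternatives were median-of-ratios scaling, blanks left missing, pseudocounts of 1 and 10, no filter, a mean of at least 50 RPM, strains left out in turn, and fits with and without the number as block. In fits of evolved against wild type, a number was left out of both groups. Leaving out the populations with raised chromosome XV, whose limit of 0.15 was set on the data, was added after the data were seen. Genes picked for closer description were RPN4 and, per comparison, the 2 core and 2 regulatory genes of smallest adjusted p. Related genes picked were the 3 of smallest adjusted p or called ones. The members and lists were chosen with earlier results of these data known. Of the IDs, 5953 matched the R64 annotation.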

Additional observations from a re-analysis of the deposited data

Results flagged for a closer look

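None of the 32 proteasome genes differed between evolved populations and wild type strains in the xylulose/glucose ratio by the test of that difference, and 4 of the 39 related genes did (limma, unpaired, 12 ratios each), against 0.741% higher and 5.91% lower over all genes. The lists were not tested against each other. UBC5 differed by -2.08 on the log2 scale (SE 0.42, adjusted p = 0.00218), with 3 of 12 wild type glucose columns blank and set to 10 RPM. SEM1 differed by -0.87 (SE 0.19, adjusted p = 0.00375). UBI4 differed by -1.59 (SE 0.36, adjusted p = 0.00588), with opposite signs of the ratio in the populations. YAP1 differed by -0.91 (SE 0.22, adjusted p = 0.0115), and by -0.83 (adjusted p = 0.0965) without the 4 populations with raised chromosome XV. In each of the 4 genes, the ratio of 12 of 12 evolved populations lay below the wild type mean.

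On glucose alone, UBC5, SEM1 and UBI4 were higher in evolved populations than in wild type strains, with log2 ratios of 1.57, 0.78 and 0.91 (adjusted p = 0.00448, 0.00503 and 0.0416). UBI4 lost this call under 14 of 21 alternatives, with an adjusted p of 0.0648 with median-of-ratios scaling, and UBC5 with blanks left missing (adjusted p = 0.0695).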

How the results depend on the processing

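Each strain left out in turn gave 3 to 6 called genes of the 32 in the evolved xylulose/glucose comparison (3 without strain 2, 4 or 10), 3 to 7 in the wild type one (3 without strain 7) and 0 to 1 for evolved/wild type on glucose (1 without strain 4), against 5, 6 and 0 with all strains. Median-of-ratios scaling gave 13 in the evolved xylulose/glucose comparison. With the strain number as a replicate block, RPT5 was called for evolved/wild type on glucose, 1 gene in place of 0, whether numbers were used as labelled (adjusted p = 0.0308) or exchanged (0.0312); of the same-numbered columns, 3 of 12 on xylulose and 2 of 12 on glucose deviated together. The sign turned for PRE10 on xylulose (-0.01 without raised chromosome XV). It also turned for RPN4 on glucose (-0.078 without evolved 7 and wild type 7, in a range up to 0.263). Neither was called, and the cause was not tested. Over all genes, calls for evolved/wild type on xylulose were 80, and 0 without the populations with raised chromosome XV (339 at an unadjusted 0.05), where fewer columns entered, and 227 with the exchanged block. On glucose they were 111, against 37 with blanks missing and 50 without those populations, and for the difference in ratio 341, against 142 and 103. RPN4 kept its calls on xylulose under all 19 alternatives in each population, with log2 ratios of 0.87 to 1.03 in evolved populations and 1.17 to 1.54 in wild type strains. At the median depth of 680944 reads, 10 RPM stands for 6.8 reads, so genes near it are imprecise.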
